A study of Homo sapiens with 22 samples.

Results

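The unfolded protein response (UPR) genes described here are HSPA5, XBP1, HERPUD1, DNAJB9, HYOU1, PDIA4, SDF2L1, HSP90B1, CALR and EDEM1. They are 10 of the 19570 gene names with a protein-coding transcript in the files, chosen by symbol, and each was represented by the protein-coding transcript with the highest mean count over the chase. The data are BRIC-Seq libraries, in which HEK293T cells, a line derived from human embryonic kidney, were fed 150 µM bromouridine for 24 h so that RNA made in that time carried the label, and were then chased in medium without it before the labelled RNA was captured with an anti-BrdU antibody and sequenced. One arm expressed control hairpin RNA (shControl). The other expressed hairpin RNA against ZNF598 (shZNF598), the gene of the ubiquitin ligase of stalled and collided ribosomes. The labels name no other difference between the arms. Both arms were sampled at 0, 2, 4, 6 and 10 h of chase with 2 libraries each and at 24 h with 1 library each, 22 libraries in all. Nothing in the labels or methods says how many hairpins or clones made up an arm or that replicate libraries came from separate cultures. The p-values therefore measure the spread between these libraries, which may be technical. For slopes they also take in how far the levels depart from a straight line.

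Proteins that enter the secretory pathway fold in the endoplasmic reticulum (ER), and the UPR is the program that raises its folding and clearance capacity when unfolded proteins build up. It starts from 3 sensors in the ER membrane, IRE1 (encoded by ERN1), ATF6 and PERK (encoded by EIF2AK3). IRE1 cuts a short intron out of XBP1 mRNA so that an active transcription factor is made, cleaved ATF6 acts as a transcription factor itself, and PERK slows translation and favours ATF4. The genes described here are targets or carriers of the first and the second of these branches, and they encode the factor XBP1, chaperones, a disulfide isomerase, co-chaperones and proteins of ER-associated degradation (ERAD), which sends misfolded proteins to the proteasome.

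The element that links many UPR genes is the ER stress response element (ERSE), spelled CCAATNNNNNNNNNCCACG, and a shorter form is ERSE-II, whose letters, with 1 free base in the middle, are the capitals of the HERPUD1 site. Both were searched on both strands in RefSeq promoter windows of GRCh38.p14 that run from 250 bases before to 50 bases after a transcript start, and all 10 genes had a window (12 windows). The sites are shown because 7 of the 10 genes held one of these spellings, with the motif letters in capitals and the RNA's own strand written 5′ to 3′.
HSPA5 (ERSE, chr9:125241383-125241417, minus strand): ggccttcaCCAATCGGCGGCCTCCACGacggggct
XBP1 (ERSE, chr22:28800595-28800629, minus strand): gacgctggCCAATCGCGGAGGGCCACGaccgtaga
HSP90B1 (ERSE, chr12:103930208-103930242, plus strand): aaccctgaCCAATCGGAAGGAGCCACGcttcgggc
CALR (ERSE on the opposite strand, chr19:12938376-12938410, plus strand): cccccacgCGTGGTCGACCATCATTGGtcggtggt
HERPUD1 (ERSE-II, chr16:56932017-56932043, plus strand): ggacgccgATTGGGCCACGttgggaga
HYOU1 (ERSE-II on the opposite strand, chr11:119057266-119057292, minus strand): gcctgggaCGTGGTCCAATgagtacgc
SDF2L1 (ERSE-II on the opposite strand, chr22:21642106-21642132, plus strand): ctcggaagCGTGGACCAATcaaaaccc
ERSE matched 27 of 35116 promoter windows (0.0769%), those of HSPA5, XBP1, HSP90B1 and CALR among them, and HSP90B1 held a second copy. ERSE-II matched 19 windows (0.0541%), with HERPUD1, HYOU1 and SDF2L1 among them, and HYOU1 also held a second copy. The UPR element core TGACGTGG matched 256 windows (0.729%) and, of these genes, HYOU1, where it overlapped the upstream ERSE-II copy by its last letters. The windows of DNAJB9, PDIA4 and EDEM1 held none of the 3 spellings, which says only that these letters were not in these windows. The motifs were chosen as elements known from UPR genes, so the matches show where the letters lie and do not test enrichment.

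One further stretch bears on how the XBP1 counts can be read. The counted XBP1 transcript (ENST00000216037.10, GRCh38 chromosome 22, 28794555 to 28800597, minus strand, 5 exons, 1850 nt) keeps the stretch that IRE1 removes. The capitals show it as the 26 bases at chr22:28796128-28796153 that the annotation leaves out of the spliced form. A G opens the capitals and another follows them, so a stretch shifted by 1 base leaves the same spliced sequence. The capitals therefore do not mark the exact cut sites.
XBP1 exonic stretch cut by IRE1: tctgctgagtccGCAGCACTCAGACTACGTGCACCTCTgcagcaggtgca
The annotated form without these bases (ENST00000344347.5) is a separate row of the files, but it shares its other exonic sequence with the counted one around this stretch and reads were counted in every isoform they overlapped, so the counts do not separate the spliced from the unspliced form. The values below are for XBP1 mRNA of both kinds.

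All levels are TMM-scaled counts-per-million (CPM) values. The scaling equalizes the bulk of the libraries, so that labelled RNA lost at the rate of the bulk kept its CPM (slope 0) and RNA lost more slowly rose. Total counts were 52352359 to 96963584 in the 20 libraries of 0-10 h and 21220829 and 40157613 at 24 h, and replicate libraries correlated at 0.958 in the shControl 0 h group and at 0.981 or above in the others (Pearson r of log2 CPM across transcripts). Because the shControl 0 h libraries stood apart, 2 kinds of result for the tested UPR genes are also given without the 0 h libraries of both arms. These are the slopes in each arm and the calls on differences averaged over the chase. Calls at 0 h and from 0 to 4 h are also given with 1 shControl library of 0 h left out. The targeted gene checked the labels, since ZNF598 stood at 4.05 to 8.55 CPM in shControl and 0.419 to 1.07 CPM in shZNF598 over 0-10 h, a log2 difference of -3.05 ± 0.087 (standard error, SE; edgeR's quasi-likelihood test, adjusted p = 1.17e-18). In the shZNF598 library of 24 h it stood at 2.44 CPM, against 4.97 CPM in shControl. Of the genes listed as markers of the line, the intermediate filament gene VIM was at 98.8 to 226 CPM in all 22 libraries. KRT18 was at 10.5 to 14.9 CPM, KRT8 at 5.84 to 24.4, INA at 4.56 to 16.4 and NEFM at 0.669 to 3.52. The blood, liver and endothelial genes PTPRC, CD3E, ALB and CDH5 were at or below 0.0582 CPM. The collagen gene COL1A1, listed as a fibroblast marker, was at 0.289 to 1.80 CPM, a range that overlaps that of NEFM. The part of COL1A1 in the results was not tested.

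At 0 h the 10 genes spanned a wide range of levels. Per kb of transcript, CALR led in shControl at 81.2 ± 2.69 CPM (SD, n = 2), followed by HSP90B1 at 28.8 ± 2.91 and PDIA4 at 28.0 ± 2.15. XBP1 (10.5 ± 1.94), HYOU1 (9.65 ± 0.513) and HSPA5 (8.98 ± 2.18) formed the next group, and SDF2L1 (2.88 ± 0.833), HERPUD1 (1.61 ± 0.0846), EDEM1 (1.53 ± 0.428) and DNAJB9 (0.909 ± 0.0922) closed the order. The 2 libraries overlapped between HSP90B1 and PDIA4, between XBP1 and HYOU1, between HYOU1 and HSPA5 and between HERPUD1 and EDEM1, so the order of these neighbours is not set by these data. In shZNF598 the order was the same except that EDEM1 (1.69 ± 0.0354) stood above HERPUD1 (1.39 ± 0.0897). The levels of HSPA5 and HSP90B1 may be understated by the counting, since 26.4% and 26.3% of the 50-base windows of their transcripts also match another place in the genome with at most 1 mismatch and only reads with 1 locus were kept. How many reads were lost was not measured. DNAJB9, with a mean of 0.908 CPM before scaling, fell under the minimum of 1 CPM and was the 1 gene of the 10 that did not enter the main tests.

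The first question was how these labelled mRNAs fared against the bulk during the chase, and the genes went in both directions. Over 0-10 h the labelled mRNAs of the chaperones HSP90B1, HYOU1 and CALR and of the disulfide isomerase PDIA4 gained on the bulk in both arms, those of HSPA5, XBP1, HERPUD1 and EDEM1 lost ground in both, and SDF2L1 moved with the bulk. The direction did not follow the role, since the chaperone HSPA5 fell while the other 3 tested chaperones rose. Positive slopes were called for 4 of the 9 tested genes in each arm, where 33.5% of all 79513 transcripts tested were called in that direction in shControl and 32.7% in shZNF598. Negative slopes were called for 4 genes in each arm, against 40.8% of transcripts in shControl and 38.5% in shZNF598, so called slopes were common among all transcripts. The median slope over the 9 genes was 0.00027 log2 per h in shControl and -0.0024 in shZNF598, beside -0.018 and -0.014 over all transcripts. Over the 10725 genes with a tested protein-coding row, 1 row each, the medians were -0.057 and -0.049. The slope of SDF2L1 lay above those of 66.2% of these genes in shControl and 64.8% in shZNF598, and that of EDEM1 above 41.3% and 35.9%. Carrying an ERSE did not go with 1 direction, since of its 4 holders HSP90B1 and CALR had positive slopes and HSPA5 and XBP1 negative ones.

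**Figure D1:**
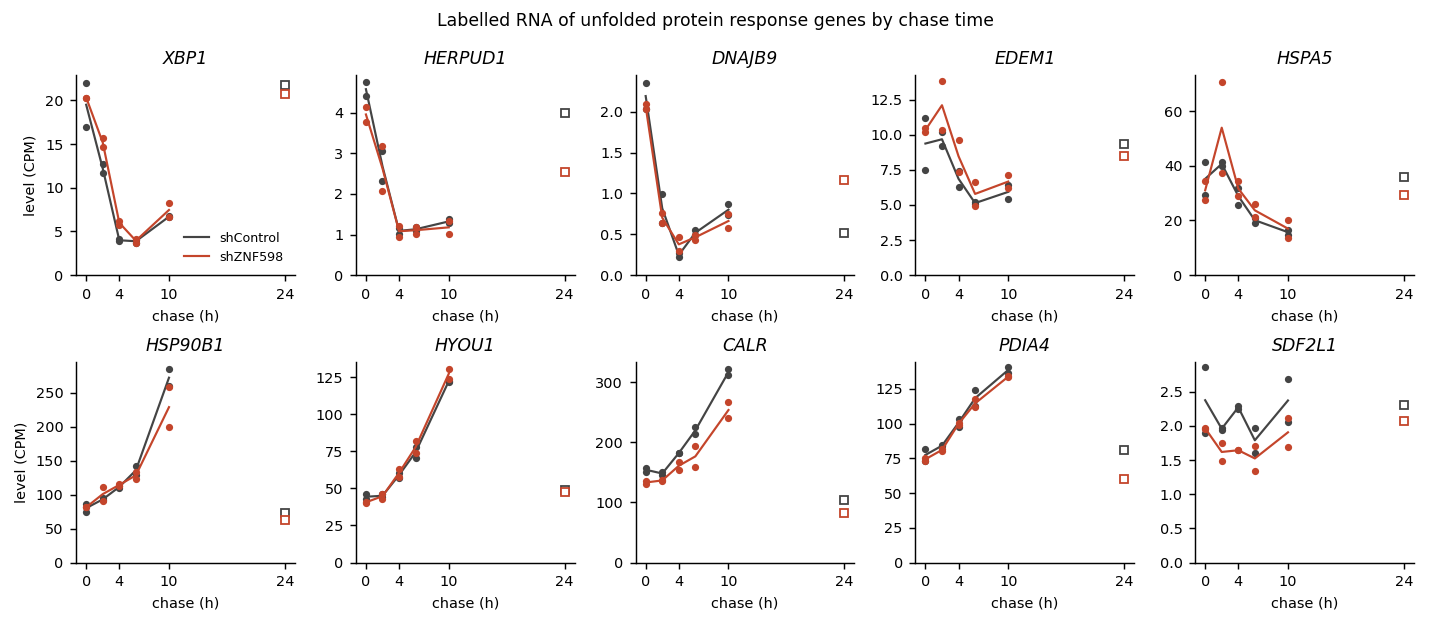
Level (CPM, linear axis from 0) of each of the 10 genes against chase time in hours, in shControl (grey) and shZNF598 (red). Dots are single libraries, lines join the means of 2 libraries, and open squares are the single libraries of 24 h. XBP1 and DNAJB9 are lowest at 4 to 6 h and higher again at 10 h, HERPUD1 is low from 4 to 10 h, and HSP90B1, HYOU1, CALR and PDIA4 are highest at 10 h and lower again at 24 h.

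XBP1, the transcription factor that carries the IRE1 signal to the nucleus, had labelled mRNA that fell early against the bulk and later rose against it. These levels are relative, and the cause of the later rise was not tested. In shControl it stood at 17 and 22 CPM at 0 h, 11.7 and 12.7 at 2 h, 4.11 and 3.88 at 4 h, 3.7 and 4.07 at 6 h, 6.74 and 6.65 at 10 h and 21.8 at 24 h. In shZNF598 the values were 20.3 and 20.3 CPM at 0 h, 15.7 and 14.7 at 2 h, 5.79 and 6.2 at 4 h, 4.19 and 3.7 at 6 h, 6.64 and 8.28 at 10 h and 20.7 at 24 h. Every library of 4 and 6 h was below every library of 0 and 2 h, every library of 10 h was above those of 4 and 6 h, and at 24 h XBP1 stood near its 0 h level in both arms. Over both arms the 4 h level was -2.02 ± 0.093 log2 units from that of 0 h (SE; edgeR's quasi-likelihood test, adjusted p = 5.41e-15), a direction called for 28.9% of transcripts. From 4 to 10 h it rose by 0.53 ± 0.10 (adjusted p = 2.79e-05), as 35.4% of transcripts did. The contrasts of 4 h with 0 h and of 10 h with 4 h were added after the levels had been seen. A straight line fitted to such a curve gave slopes of -0.164 ± 0.053 log2 per h in shControl and -0.165 ± 0.054 in shZNF598, both called (adjusted p = 0.0082 and 0.00949). Without the 0 h libraries the slopes were -0.089 and -0.12 and neither was called (adjusted p = 0.233 and 0.117).

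HSPA5 encodes BiP, the ER HSP70 that binds unfolded chains and holds the sensors inactive, and its labelled mRNA fell late. It stood at 41.3 and 29.2 CPM at 0 h, 39.9 and 41.4 at 2 h, 32 and 25.8 at 4 h, 21 and 19.2 at 6 h, 16.6 and 14.8 at 10 h and 36.1 at 24 h in shControl. In shZNF598 it stood at 34.4 and 27.6 CPM at 0 h, 37.3 and 70.5 at 2 h, 34.6 and 28.8 at 4 h, 26.1 and 21.3 at 6 h, 20.3 and 13.7 at 10 h and 29.5 at 24 h. The second shZNF598 library of 2 h, at 70.5 CPM, stood above all 21 others, and in each arm both libraries of 10 h were below all of 0 to 6 h. HSPA5 changed by -0.13 ± 0.15 log2 units from 0 to 4 h, which was not called (adjusted p = 0.481), and by -0.88 ± 0.15 from 4 to 10 h (adjusted p = 1.28e-05), a direction called for 38.5% of transcripts. Its slopes were -0.140 ± 0.033 log2 per h in shControl and -0.135 ± 0.034 in shZNF598 (adjusted p = 7.53e-04 and 0.00152), and without the library at 70.5 CPM the shZNF598 slope was -0.10 (adjusted p = 0.00123).

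The other ER chaperones took the opposite course. HSP90B1 encodes GRP94, the HSP90 of the ER. It stood at 86 and 74.5 CPM at 0 h, 94.5 and 91.7 at 2 h, 111 and 112 at 4 h, 143 and 129 at 6 h, 260.1 and 285 at 10 h and 73.7 at 24 h in shControl and at 81.5 and 81.5 CPM at 0 h, 90.9 and 111 at 2 h, 116 and 113 at 4 h, 133 and 124 at 6 h, 258 and 199.9 at 10 h and 62.7 at 24 h in shZNF598. The 10 h libraries of both arms were above all others, and at 24 h the level lay below both 0 h libraries of its arm. The slopes of HSP90B1 were 0.176 ± 0.013 and 0.143 ± 0.014 log2 per h (adjusted p = 4.37e-10 and 1.51e-08), higher than those of 95.5% and 93.7% of the 10725 genes with a tested protein-coding row. From 0 to 4 h it rose by 0.48 ± 0.082 log2 units, a direction called for 27.6% of transcripts, and from 4 to 10 h by 1.14 ± 0.082 (adjusted p = 2.14e-05 and 6.40e-12).

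HYOU1, the large HSP70-type chaperone that also acts as a nucleotide exchange factor for BiP, rose alongside it. In shControl it stood at 46 and 42.7 CPM at 0 h, 46.1 and 43.9 at 2 h, 60.6 and 57.3 at 4 h, 70.6 and 78.1 at 6 h, 123 and 122 at 10 h and 49 at 24 h. The shZNF598 libraries gave 40.7 and 40.4 CPM at 0 h, 46.3 and 43.1 at 2 h, 63.3 and 57.6 at 4 h, 73.6 and 81.9 at 6 h, 124 and 131 at 10 h and 47.5 at 24 h. Within each arm both libraries of 4 h lay above those of 0 and 2 h, and those of 10 h above all others. Its slopes were 0.154 ± 0.011 log2 per h in shControl and 0.171 ± 0.011 in shZNF598 (adjusted p = 1.34e-10 and 1.00e-10), and all 21 HYOU1 transcripts tested, which share reads, had called positive slopes in both arms.

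CALR encodes calreticulin, the lectin chaperone that binds newly made glycoproteins and calcium, and it was the most abundant of the 10. It stood at 151 and 158 CPM at 0 h, 145 and 151 at 2 h, 182 and 182 at 4 h, 214 and 226 at 6 h, 312 and 322 at 10 h and 103 at 24 h in shControl. In shZNF598 it stood at 135 and 131 CPM at 0 h, 136 and 137 at 2 h, 155 and 167 at 4 h, 159.5 and 194 at 6 h, 240.0 and 267 at 10 h and 82 at 24 h. The 10 h mean was 2.05 times the 0 h mean in shControl and 1.91 times in shZNF598, and at 24 h the level was below both 0 h libraries of its arm. The slopes were 0.112 ± 0.011 and 0.096 ± 0.011 log2 per h (adjusted p = 1.44e-08 and 1.85e-07).

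PDIA4, a disulfide isomerase that forms and rearranges disulfide bonds in client proteins, rose in smaller steps. In shControl the levels were 73.2 and 81.6 CPM at 0 h, 84.5 and 83.6 at 2 h, 97.7 and 103 at 4 h, 113 and 124 at 6 h, 137 and 140.4 at 10 h and 81.2 at 24 h. In shZNF598 they were 75.5 and 73.2 CPM at 0 h, 81.8 and 80.3 at 2 h, 99.3 and 100.3 at 4 h, 112 and 117 at 6 h, 134 and 133 at 10 h and 59.9 at 24 h. Replicates lay close together, and within each arm no 2 of the 5 chase times of 0-10 h overlapped. Its slopes, 0.089 ± 0.0091 log2 per h in shControl and 0.089 ± 0.0091 in shZNF598 (adjusted p = 2.73e-08 and 3.94e-08), had the smallest SE of the 9 genes.

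Of the co-chaperones, DNAJB9 and SDF2L1 differed in course. DNAJB9 encodes ERdj4, a J-protein that acts with BiP, and it rested on few counts. It stood at 2.03 and 2.35 CPM at 0 h, 0.641 and 0.996 at 2 h, 0.223 and 0.273 at 4 h, 0.489 and 0.55 at 6 h, 0.731 and 0.871 at 10 h and 0.52 at 24 h in shControl and at 2.04 and 2.09 CPM at 0 h, 0.642 and 0.764 at 2 h, 0.293 and 0.462 at 4 h, 0.436 and 0.492 at 6 h, 0.753 and 0.574 at 10 h and 1.16 at 24 h in shZNF598. All 8 libraries of 4 and 6 h were below all 4 libraries of 0 h, and at 10 h every library was above those of 4 h. In a fit with no filter on mean CPM (172958 transcripts), DNAJB9 was at -2.71 ± 0.18 log2 units at 4 h against 0 h and rose by 1.22 ± 0.22 from 4 to 10 h, past the same threshold as 19.8% and 20.8% of transcripts in those directions. The straight-line slopes of that fit were -0.14 ± 0.060 and -0.16 ± 0.063 log2 per h, with adjusted p = 0.0571 in shControl and 0.041 in shZNF598, where 25.5% and 23.5% of transcripts had called negative slopes.

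SDF2L1, a partner of ER J-proteins that lowers the aggregation of misfolded proteins, kept pace with the bulk. In shControl it stood at 1.89 and 2.86 CPM at 0 h, 1.97 and 1.95 at 2 h, 2.3 and 2.25 at 4 h, 1.97 and 1.61 at 6 h, 2.05 and 2.7 at 10 h and 2.31 at 24 h. In shZNF598 it stood at 1.97 and 1.96 CPM at 0 h, 1.75 and 1.49 at 2 h, 1.65 and 1.64 at 4 h, 1.34 and 1.71 at 6 h, 1.69 and 2.12 at 10 h and 2.07 at 24 h. No chase time stood apart from the others in either arm. The slopes were 0.00027 ± 0.021 and -0.0024 ± 0.022 log2 per h and were not called (adjusted p = 0.991 and 0.928).

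Both ERAD genes lost ground. HERPUD1 encodes a membrane protein that helps assemble the complex around the ubiquitin ligase HRD1. It stood at 4.41 and 4.75 CPM at 0 h, 2.32 and 3.05 at 2 h, 1.03 and 1.16 at 4 h, 1.18 and 1.08 at 6 h, 1.37 and 1.28 at 10 h and 3.99 at 24 h in shControl and at 3.78 and 4.14 CPM at 0 h, 2.08 and 3.18 at 2 h, 0.943 and 1.22 at 4 h, 1.2 and 1.02 at 6 h, 1.33 and 1.02 at 10 h and 2.53 at 24 h in shZNF598. Every library of 4 to 10 h lay below every library of 0 and 2 h, and the 24 h libraries lay above those of 4 to 10 h. The 4 h level was -1.97 ± 0.14 log2 units from that of 0 h (adjusted p = 9.92e-12), and the difference of 0.22 ± 0.16 between 10 and 4 h was not called (adjusted p = 0.226). The slopes were -0.189 ± 0.044 and -0.188 ± 0.045 log2 per h (adjusted p = 6.27e-04 and 9.71e-04), and without the 0 h libraries -0.12 and -0.14 (adjusted p = 0.062, not called, and 0.0373).

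EDEM1 encodes a mannosidase-like protein that marks misfolded glycoproteins for ERAD. It stood at 11.2 and 7.52 CPM at 0 h, 9.19 and 10.2 at 2 h, 7.44 and 6.28 at 4 h, 5.19 and 5.07 at 6 h, 5.46 and 6.4 at 10 h and 9.3 at 24 h in shControl. In shZNF598 it stood at 10.2 and 10.5 CPM at 0 h, 10.4 and 13.8 at 2 h, 9.62 and 7.31 at 4 h, 6.66 and 4.91 at 6 h, 7.12 and 6.21 at 10 h and 8.5 at 24 h. The first shControl library of 0 h, at 11.2 CPM, and the second, at 7.52 CPM, lay on either side of both shZNF598 libraries of that time. The 4 h level was -0.37 ± 0.12 log2 units from that of 0 h (adjusted p = 0.0147), a call that was lost without the first shControl library of 0 h (-0.21, adjusted p = 0.134), the second shControl library of 4 h (-0.31, 0.0712) or the second shZNF598 library of 4 h (-0.28, 0.0841). Its slopes were -0.084 ± 0.026 and -0.090 ± 0.026 log2 per h (adjusted p = 0.00585 and 0.00421). Of the 4 EDEM1 transcripts tested, which share reads, this was the 1 with a called slope in each arm, and the slopes of the 4 reached from -0.084 to -0.025 log2 per h in shControl and from -0.090 to -0.036 in shZNF598.

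**Figure D2:**
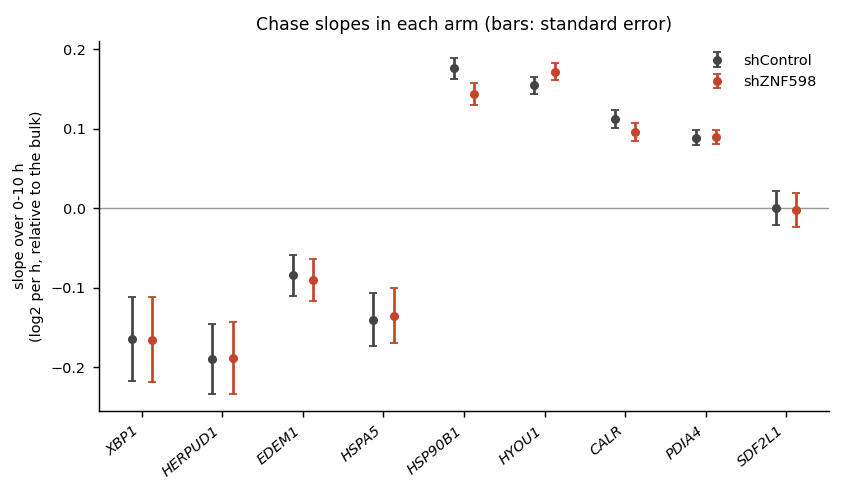
Slope of log2 level on chase hours over 0-10 h, relative to the bulk of each library, for the 9 tested genes in shControl (grey) and shZNF598 (red). Points are edgeR estimates and bars are standard errors. The slopes of the arms lie side by side for every gene, from -0.189 for HERPUD1 to 0.176 for HSP90B1 in shControl.

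**Figure D3:**
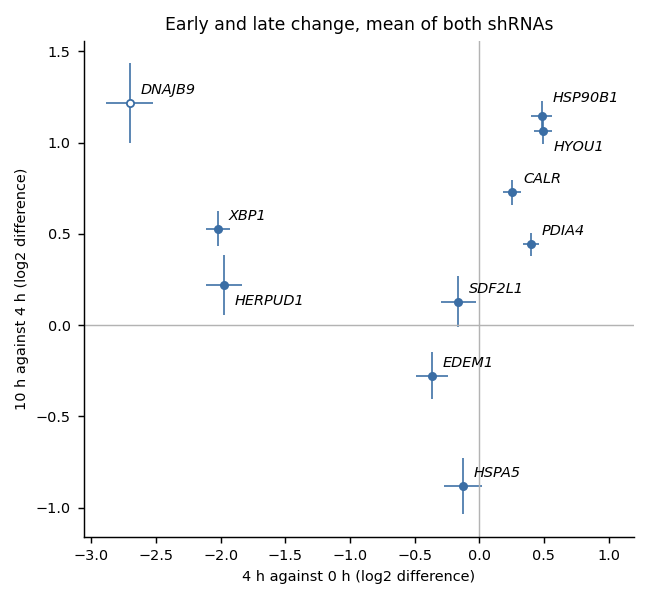
Log2 difference of 10 h from 4 h (vertical axis) against that of 4 h from 0 h (horizontal axis), as the mean of both shRNAs, with standard errors as bars. The open point is DNAJB9, from the fit with no filter. XBP1, HERPUD1 and DNAJB9 lie far to the left, at -2.02, -1.97 and -2.71 on the horizontal axis, and HSPA5 is lowest on the vertical axis at -0.88.

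The 2 spans of the chase can be read beside the slopes. From 0 to 4 h, HSP90B1, HYOU1, CALR and PDIA4 rose and XBP1, HERPUD1 and EDEM1 fell, and HSPA5 and SDF2L1 were not called. Without the first shControl library of 0 h, 6 of these 7 calls were made and EDEM1 was lost, and without the second all 7 were made. From 4 to 10 h the same 4 genes rose again together with XBP1, HSPA5 fell, and HERPUD1, SDF2L1 and EDEM1 were not called. Over all transcripts, 27.6% were called higher and 28.9% lower from 0 to 4 h, and 35.4% and 38.5% from 4 to 10 h. The slopes of HYOU1 and HSP90B1 lay above those of 93.3% and 95.5% of the 10725 genes in shControl, while those of HERPUD1 and XBP1 lay above those of 10.1% and 16.0%. Without the 0 h libraries, slopes (shControl, then shZNF598) were 0.18 and 0.18 log2 per h for HYOU1 and 0.19 and 0.14 for HSP90B1. CALR gave 0.13 and 0.10, PDIA4 0.085 and 0.081, HSPA5 -0.17 and -0.21 and EDEM1 -0.089 and -0.11. All of these were called, while SDF2L1 gave 0.020 and 0.020, neither called.

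Apparent half-lives by the rule of the study (a line through 0-4, 0-6, 0-10 or 0-24 h, whichever had the best R², accepted above an R² of 0.9 and below 24 h) could be given for XBP1, HERPUD1 and DNAJB9. The spike-ins were left out, so these are half-lives relative to the bulk and not absolute ones. XBP1 gave 1.77 ± 0.255 h in shControl over 0-4 h (SD of the half-lives of 2 replicates, 1.96 and 1.60 h) and 2.41 ± 0.0682 h in shZNF598 over 0-6 h (2.42 and 2.32 h), so the windows differed between the arms. HERPUD1 gave 1.96 ± 0.0453 h in shControl (1.90 and 1.96 h) and 2.19 ± 0.195 h in shZNF598 (2.00 and 2.27 h), both over 0-4 h. DNAJB9 gave 1.28 ± 0.0227 h (1.26 and 1.29 h) and 1.65 ± 0.285 h (1.43 and 1.83 h), also over 0-4 h. With 2 replicates per arm an exact permutation test cannot go below p = 0.333, so the half-lives were given no test of their own. They were computed for these UPR genes only, so how often the arms differ this much over all transcripts is not known. In the edgeR fit of 0-4 h, the difference in slope (shZNF598 minus shControl) was 0.14 ± 0.091 log2 per h for XBP1 and 0.056 ± 0.092 for HERPUD1. It was called for 0 of the 9 tested genes, and 0 had an unadjusted p below 0.05. The other 7 genes had rising levels or an R² at or below 0.9 and gave none.

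The second question was whether the knockdown moved the level of these mRNAs. At 0 h, the end of labelling, none of the 9 tested genes was called between the arms (edgeR's quasi-likelihood test; 1 had an unadjusted p below 0.05, and DESeq2 also called 0), beside 324 of 79513 transcripts (0.407%). Log2 differences at 0 h, shZNF598 minus shControl, ran from -0.28 ± 0.19 for SDF2L1 to 0.14 ± 0.17 for EDEM1, and the gene with the unadjusted p below 0.05 was CALR at -0.21 ± 0.10 (adjusted p = 0.461). None was called without either shControl 0 h library, but the sign of the difference turned with the library left out for HSPA5, XBP1, PDIA4, SDF2L1, HSP90B1 and EDEM1.

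Averaged over the 5 chase times of 0-10 h, XBP1 and EDEM1 were higher and CALR and SDF2L1 lower in shZNF598. The higher calls were 2 of 9, where 12.3% of all transcripts were called higher, and the lower calls were also 2 of 9, where 10.1% of transcripts were called lower. The median difference over the 9 genes was -0.031 log2 units, beside 0.020 over all transcripts and 0.025 over genes with 1 protein-coding row each. Without the 0 h libraries XBP1 (0.26), EDEM1 (0.24), CALR (-0.24) and SDF2L1 (-0.33) were again called, and the other tested genes were not. Their adjusted p-values in that fit (edgeR's quasi-likelihood test) were 0.00349, 0.0306, 7.58e-04 and 0.00858. In these bulk lysates, fewer cells expressing a gene and less RNA per cell cannot be told apart.

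CALR showed the steadiest difference. It was lower by -0.23 ± 0.043 log2 units (adjusted p = 4.97e-04), and both shZNF598 libraries lay below both shControl libraries at each of the 5 chase times, as was so for 2.44% of all transcripts. All 7 CALR transcripts tested, which share reads, were called lower, from -0.24 to -0.21. At 24 h the single libraries stood at 82.0 CPM in shZNF598 and 103.4 CPM in shControl.

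SDF2L1 differed by -0.32 ± 0.088 (adjusted p = 0.0116), with both shZNF598 libraries below both of shControl at 2 and 4 h and overlapping ranges at 0, 6 and 10 h. It rested on a transcript of 825 nt and 133 counts per library on average. XBP1 was higher by 0.22 ± 0.059 (adjusted p = 0.00803), its shZNF598 libraries lying above both of shControl at 2 and 4 h and overlapping them at 0, 6 and 10 h. Of all transcripts, arms without overlap in either direction made up 37% at 0 h, 48.4% at 2 h, 47.8% at 4 h, 43.4% at 6 h and 44.6% at 10 h.

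EDEM1 was higher by 0.22 ± 0.080 (adjusted p = 0.0481), and this call was the least firm. It was lost in 14 of the 20 fits that left out 1 library, with the estimate between 0.17 and 0.25 and adjusted p of up to 0.128, and its arms overlapped at all times but 2 h. Of the 4 transcripts tested 2 were called higher, with estimates from 0.17 to 0.23. HSPA5 differed by 0.14 ± 0.095 and was not called (adjusted p = 0.297). Without a filter on level it was called (0.15, adjusted p = 0.0484). Without the shZNF598 2 h library at 70.5 CPM its difference was 0.036 (adjusted p = 0.79), and without the other shZNF598 library of that time, at 37.3 CPM, it was 0.22 (adjusted p = 0.0477). HERPUD1 (-0.092 ± 0.094), PDIA4 (-0.044 ± 0.040), HSP90B1 (-0.031 ± 0.051) and HYOU1 (0.0047 ± 0.043) were not called, and DNAJB9 stood at -0.014 ± 0.13 in the fit with no filter.

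The third question was whether the course of the chase itself differed with the knockdown, and no difference in slope was called among the 9 genes. Differences in slope, shZNF598 minus shControl, ran from -0.032 to 0.017 log2 per h with SEs of 0.013 to 0.073, and 0 of 9 had an unadjusted p below 0.05 (edgeR's quasi-likelihood test; DESeq2 also called 0). Of all transcripts 0.116% were called. The gene farthest from 0 was HSP90B1, at -0.032 ± 0.019 log2 per h (adjusted p = 1), where the second shZNF598 library of 10 h stood at 199.9 CPM and the other 3 libraries of that time at 258 to 285 CPM. XBP1 and HERPUD1 had the widest SEs (0.073 and 0.065 log2 per h), so a difference in slope of that size was not detectable for them here. These SEs also take in the departure of their courses from a straight line and do not measure replicate spread alone.

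**Figure D4:**
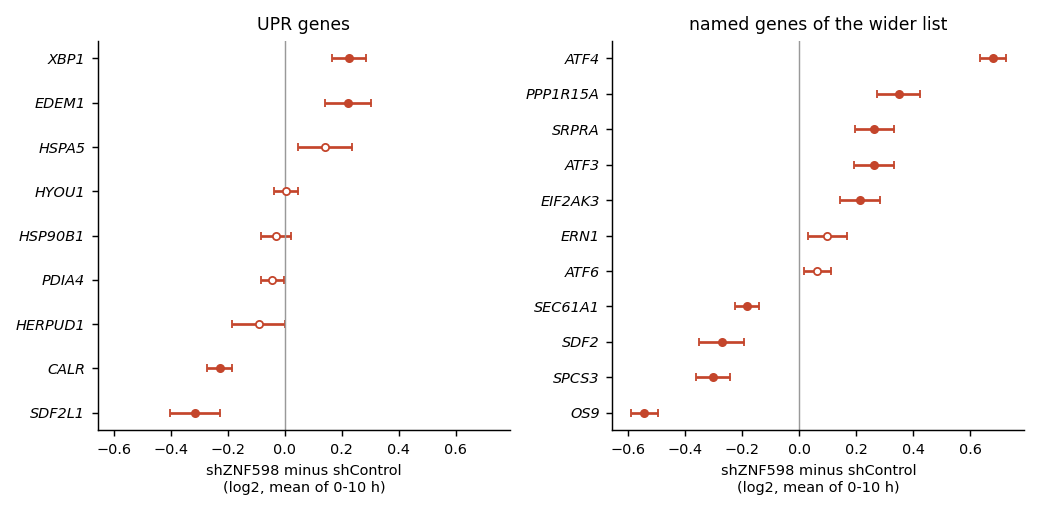
Log2 difference between shZNF598 and shControl, averaged over 0-10 h, for the 9 tested UPR genes (left) and for 11 genes of the wider list (right). Points are edgeR estimates, bars are standard errors, and filled points had an adjusted p below 0.05. XBP1 and EDEM1 lie to the right of 0 and CALR and SDF2L1 to the left, and ATF4 (0.68) and OS9 (-0.54) lie farthest out.

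The wider machinery was described with a list of 73 further genes of the UPR, ER folding, ERAD and translocation, of which 70 passed the filter on level. Averaged over 0-10 h, 10 were called higher and 7 lower in shZNF598, and 53 were not called, beside 12.3% of all transcripts called higher and 10.1% lower. Both counts, out of 70, lie near those shares. The shares are over transcripts, of which a gene can have several, while the list has 1 row per gene. The median difference was 0.039 log2 units, beside 0.020 over all transcripts and 0.025 over genes with 1 protein-coding row each. At 0 h, 1 was called higher and 1 lower (0.407% of all transcripts in either direction), and no difference in slope was called (2 had an unadjusted p below 0.05, and DESeq2 called 1).

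Among the 3 sensors, EIF2AK3 (PERK) was higher in shZNF598 by 0.21 ± 0.070 (adjusted p = 0.0303), with 2.05, 2.45 and 5.89 CPM as lowest, median and highest of the 10 shControl libraries and 2.17, 3.30 and 6.99 CPM in shZNF598. That call was lost in 9 of the 20 fits without 1 library (adjusted p of up to 0.0837), and without the 0 h libraries (0.21, adjusted p = 0.0562). ERN1 (IRE1) and ATF6 differed by 0.10 ± 0.068 and 0.064 ± 0.048 and were not called (adjusted p = 0.322 and 0.363). The labelled mRNAs of all 3 sensors had called negative slopes in both arms, in shControl -0.095 ± 0.015 log2 per h for ERN1, -0.077 ± 0.019 for ATF6 and -0.131 ± 0.033 for EIF2AK3. Of the 10 sensors and regulators, 8 had a called negative and 1 a called positive slope in each arm, beside 40.8% and 33.5% of all transcripts in shControl and 38.5% and 32.7% in shZNF598.

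The largest difference of the wider list was in a gene listed as an output of the PERK branch. PERK activity was not measured, and whether PERK underlay any of these differences was not tested. ATF4, the transcription factor whose translation PERK favours, stood at 38.9, 43.9 and 66.3 CPM (lowest, median and highest of 10 libraries) in shControl and at 59.0, 73.1 and 89.2 CPM in shZNF598. It was higher by 0.68 ± 0.045 (adjusted p = 4.19e-11) over 0-10 h and by 0.55 ± 0.10 (adjusted p = 0.00703) at 0 h, where both shZNF598 libraries (89.2 and 85.8 CPM) were above both of shControl (52.9 and 66.3 CPM). The 0 h call was lost without the first shControl library (adjusted p = 0.0781) or without the first (0.186) or second (0.105) shZNF598 library of 0 h. PPP1R15A, which encodes the phosphatase subunit GADD34 that reverses the PERK signal, was higher by 0.35 ± 0.075, and ATF3, a stress-induced transcription factor, by 0.26 ± 0.070 (adjusted p = 0.00172 and 0.0093). Without the 0 h libraries ATF3 was not called (0.20, adjusted p = 0.109). In all, 3 of the 6 tested PERK outputs were called higher and 0 lower, where 12.3% of all transcripts were called higher. The other 3 had estimates below 0 and were not called, at -0.18 ± 0.091 for TRIB3, -0.033 ± 0.056 for ASNS and -0.012 ± 0.057 for SESN2 (adjusted p = 0.175, 0.716 and 0.909), while CHAC1 and DDIT3 did not pass the filter.

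Genes called lower included the ERAD lectin OS9, which recognizes trimmed glycans on misfolded proteins. OS9 stood at 20.5, 30.8 and 90.0 CPM in shControl and at 14.3, 21.9 and 55.7 CPM in shZNF598 (lowest, median and highest). It was lower by -0.54 ± 0.047 over 0-10 h and by -0.56 ± 0.11 at 0 h (adjusted p = 4.84e-09 and 0.0114), and the 0 h call was lost without either shZNF598 library of that time (adjusted p = 0.218 and 0.214). SPCS3, a signal peptidase subunit, differed by -0.30 ± 0.060, SDF2, the paralogue of SDF2L1, by -0.27 ± 0.079 and SEC61A1, the translocation channel, by -0.18 ± 0.043 (adjusted p = 7.71e-04, 0.0152 and 0.0036). SRPRA, a subunit of the receptor that docks ribosomes at the ER, was higher by 0.26 ± 0.069 (adjusted p = 0.00801).

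The groups of the wider list had these slopes during the chase. Of 14 other ER chaperones and co-chaperones, 8 had called positive and 3 called negative slopes in shControl, and of 10 other oxidative folding enzymes 7 and 1. Of 15 tested ERAD genes 4 had called positive and 9 called negative slopes, and of the 6 PERK outputs 1 and 5. In shZNF598 the counts were 8 and 4, 7 and 0, 4 and 8, and 1 and 5. Over all transcripts 33.5% had called positive and 40.8% called negative slopes in shControl, and 32.7% and 38.5% in shZNF598.

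At 24 h only single libraries were made, and their levels are given as values with no test. The 4 genes that had risen most were lower at 24 h than at 10 h, by 3.69-fold for HSP90B1, 3.06-fold for CALR, 2.49-fold for HYOU1 and 1.71-fold for PDIA4 in shControl, and by 3.65, 3.09, 2.67 and 2.23 in shZNF598. XBP1, HSPA5, EDEM1 and HERPUD1 were higher at 24 h than at 10 h in both arms. DNAJB9 was lower at 24 h than at 10 h in shControl (0.52 against 0.801 CPM) and higher in shZNF598 (1.16 against 0.663 CPM). With the 24 h libraries in the fit, none of the 9 genes had a called slope in either arm (edgeR's quasi-likelihood test, 0 with an unadjusted p below 0.05).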

How the data were processed

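BRIC-Seq libraries of HEK293T cells (22 libraries, 12 groups by shRNA and chase time) were analysed. Per the methods of the study and the submitters' processing notes (CASAVA 1.8, STAR 2.7.0a, hg38), the authors trimmed reads with fastp, removed noncoding RNA, aligned with STAR to GENCODE release 32, keeping reads with at most 1 mismatch and a single locus, and deposited raw read counts per transcript from featureCounts. In the study, fold changes were renormalized to spike-ins. The spike-ins did not enter the present values, which are relative to the bulk.

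Transcripts were named from GENCODE release 44 (92.2% of 227264 identifiers matched with version, 98.4% without), and unmatched identifiers held 2.22% of counts. Transcripts whose mean CPM was 1 or more in the 20 libraries of 0-10 h (79513) were fitted with edgeR 4.0.16 in R 4.3.3 (TMM scaling, quasi-likelihood test), with p-values adjusted by Benjamini-Hochberg over all of them and called below 0.05. Contrasts came from a model with 1 mean per group, and slopes from a model with shRNA, hours and their product. SEs were derived from the log2 value and its F. Levels of 24 h came from a scaling of all 22 libraries. DESeq2 1.42.0 gave the half-life fold changes and 1 alternative, and minimap2 2.31 matched 50-base windows to the genome. Functions were tested on simulated data.

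The genes, the wider list and the motifs were chosen with earlier results of these data known. From the wider list, ERN1, ATF6 and EIF2AK3 were named, as were the called genes with the largest changes between shRNAs (at most 4 in each direction and comparison). Alternatives covered the test, scaling, filter, rows per gene, transcript, replicate block, left-out libraries and chase windows. The contrasts of 4 h with 0 h and 10 h with 4 h and the fit without the 0 h libraries were chosen after seeing the data.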

Additional observations from a re-analysis of the deposited data

How the results depend on the processing

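The ZNF598 difference was called under every alternative that was run, and the counts of UPR genes called at 0 h and for the difference in slope stayed at 0. Over 0-10 h, 4 UPR genes were called as reported, 3 to 5 with 1 library left out, 5 without a filter, where HSPA5 joined, and 3 with 1 row per gene, where EDEM1 was lost. RLE scaling changed no count by more than 1.5 times. The number of all transcripts called moved more. At 0 h it was 550 with DESeq2, 784 without a filter, 91 with 1 row per gene, 11 from the 0 h libraries alone, and 49 to 1899 with 1 library left out. The low came without the first shZNF598 and the high without the second shControl library of 0 h. Of the wider list, 0 genes were called from the 0 h libraries alone and 0 to 3 with 1 library left out. For the mean of 0-10 h, 1 row per gene gave 3800 calls out of fewer rows. For the difference in slope the counts were 506 with DESeq2 (1 of them in the wider list), 50 without a filter, 10 with 1 row per gene, 0, 22 and 0 over 0-4, 0-6 and 0-24 h, 52 without the 0 h libraries, and 5 to 126 with libraries left out.

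Slopes were called for 11199 and 10800 rows (shControl and shZNF598) with 1 row per gene, 27169 and 26946 transcripts over 0-4 h and 22969 and 20829 over 0-24 h. Of the UPR genes, 5 had a called slope in shControl over 0-4 h, 0 in either arm over 0-24 h, and 5 to 8 in each arm with libraries left out. The contrast of 4 h with 0 h gave 67755 calls without a filter and 9682 with 1 row per gene, and that of 10 h with 4 h gave 11372 with 1 row per gene. Over 0-24 h the sign of the slope turned for XBP1 (0.011 in shControl and 0.0026 in shZNF598) and, in shZNF598, for PDIA4 (-0.00083) and CALR (-0.0062). Over 0-4 h it turned for HSPA5 in shZNF598 (0.0052). The cause was not tested.

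Values near 0 also turned. SDF2L1 had a slope in shControl of -0.027 over 0-4 h and -0.050 over 0-6 h, and in shZNF598 of 0.0066 with DESeq2, 0.0071 with RLE scaling, 0.00018 without a filter, 0.0047 with 1 row per gene, 0.0082 over 0-24 h and 0.020 without the 0 h libraries. HYOU1 differed by -0.0059 over 0-10 h with 1 row per gene. HSP90B1 differed at 0 h by -0.015 from the 0 h libraries alone and -0.029 for its longest transcript, and its difference in slope over 0-4 h was 0.013.

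With 1 library or replicate number left out, differences at 0 h ranged from -0.41 to 0.088 for HSPA5, -0.12 to 0.26 for XBP1, -0.14 to 0.022 for PDIA4, -0.54 to 0.056 for SDF2L1, -0.078 to 0.13 for HSP90B1 and -0.12 to 0.46 for EDEM1, each extreme without a shControl 0 h library. For 4 h against 0 h the ranges were -0.24 to 0.0094 for HSPA5 and -0.29 to 0.0044 for SDF2L1. Over 0-10 h they were -0.011 to 0.020 for HYOU1 and -0.071 to 0.0032 for HSP90B1. The slope of SDF2L1 ranged from -0.026 to 0.025 in shControl and from -0.026 to 0.021 in shZNF598, and the difference in slope of HSP90B1 from -0.072 to 0.0043.

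The deviations of same-numbered libraries correlated at -0.477 to 0.702 over 45 pairs of groups (median 0.043, 18 above 0.1). Some groups thus shared replicate deviations and others did not, which does not settle whether the replicate numbers pair the libraries. The main fits treat all libraries as independent. With the replicate number as a block, the UPR genes called were 0 at 0 h, 4 over 0-10 h, 8 for the slope in each arm, 0 for the difference in slope, 7 for 4 h against 0 h and 7 for 10 h against 4 h, where EDEM1 joined (-0.27, adjusted p = 0.0463). Depth limits DNAJB9, HERPUD1 and SDF2L1 most, at means of 59.8, 145 and 133 counts per library.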
